A study of Mus musculus with 30 samples.

Results

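The mitochondrially encoded genes are the 37 genes that GENCODE M21 places on the mitochondrial chromosome of the mouse, all with symbols that start with mt-. All 37 were listed in the tables, among 55385 genes, and they were taken by their position alone: 13 protein-coding genes, 22 tRNA genes and 2 rRNA genes. They were followed in 30 RNA-seq libraries, 16 of kidney and 14 of retina, from 21 mice of which 9 gave both organs. Mice were 16 weeks old and were Lepr(+/+), labelled non-diabetic, or Lepr(db/db), labelled diabetic, which lack a working leptin receptor. Each kind was either wild-type or carried a global knockout of CAMK2D, a calcium-activated kinase, so that every cell type lacked it. The kidney groups held 4 libraries each. In retina there were 3 libraries of non-diabetic and 4 of diabetic wild-type mice, and 4 and 3 of knockout mice. A library is named K or R for the organ, with the number of its animal. The sources used here name neither strain background nor litter, and p-values measure the spread between animals that shared whatever these were.

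The mitochondrial chromosome codes for core subunits of the respiratory chain and ATP synthase, and for the rRNAs and tRNAs that translate them. All other subunits, and the enzymes that copy, transcribe and process mitochondrial DNA and RNA, come from nuclear genes. Both strands are transcribed as long precursors, from which tRNAs are cut out between the mRNAs and rRNAs, so that levels of the mature RNAs also depend on processing and decay. Proximal tubule cells of the kidney and photoreceptors of the retina are both known as tissues with dense mitochondria. Among the 13 mRNAs, 7 code for subunits of complex I (mt-Nd1 to mt-Nd6 and mt-Nd4l), which oxidises NADH. Complex III takes 1 (mt-Cytb), complex IV, cytochrome c oxidase, takes 3 (mt-Co1 to mt-Co3), and complex V, the ATP synthase, takes 2 (mt-Atp6 and mt-Atp8). All mRNAs but mt-Nd6 are coded on the plus strand of the GRCm38 sequence.

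The libraries held 19870485 to 22643055 counts, and the labelled organs showed their defining markers. All 10 proximal tubule markers reached a median of 10 TPM (a transcript level corrected for gene length) in kidney, and all 8 rod photoreceptor markers did so in retina. Camk2d, the targeted gene, was at 0.0864 to 0.557 CPM (a count scaled to library size and the trimmed mean of M values) in knockout kidneys and 10.3 to 19.8 CPM in wild-type kidneys, and at 3.09 to 4.25 against 285.4 to 343.1 CPM in retinas. Libraries K591 and K861 stood apart in mitochondrial share, so the members' main results between kidney groups are given with and without them. Results for nuclear genes and between the organs are given with both libraries included.

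Many of the reads of these genes cannot be placed, because a stretch of mouse chromosome 1 holds near-identical copies of 7 of them (annotated as pseudogenes between bases 24611535 and 24616197, GRCm38). The copy of mt-Co2, Gm28661, matches 681 of its 684 bases with 0 mismatches. The copies of mt-Atp6 (Gm10925, 678 bases), mt-Co3 (Gm28437, 783 bases), mt-Nd4l (Gm10222, 294 bases) and mt-Nd4 (Gm28439, 876 bases) also had 0 mismatches over the stretch they share. That of mt-Nd3 (Gm28438) had 1 mismatch in 345 bases, and that of mt-Co1 (Gm29216) had 6 in 492 bases. The starts of mt-Co2 and of its copy are shown because they are the same letter for letter, and windows of the other 2 pairs because they hold the mismatches, in capitals. Sequences come from the GENCODE M21 transcripts, 5′ to 3′ on the strand of each gene (plus for mitochondrial genes, minus for the copies).
mt-Co2, chrM:7013-7072: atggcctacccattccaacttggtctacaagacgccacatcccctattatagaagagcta
Gm28661, chr1:24615506-24615565: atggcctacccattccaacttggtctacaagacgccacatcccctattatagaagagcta
mt-Nd3, chrM:9459-9491: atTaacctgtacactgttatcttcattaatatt
Gm28438, chr1:24613087-24613119: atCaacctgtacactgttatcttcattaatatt
mt-Co1, chrM:6381-6417: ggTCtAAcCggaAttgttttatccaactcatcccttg
Gm29216, chr1:24616161-24616197: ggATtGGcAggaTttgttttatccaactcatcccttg

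The share of a member's 31-base words that occur in no other gene shows how far its counts stand on their own. It was 0% for mt-Co2, 0.133% for mt-Co3, 0.461% for mt-Atp6, 1.12% for mt-Nd4l and 1.89% for mt-Nd3. It was 36.1% for mt-Co1 and 37.2% for mt-Nd4, and at least 83.2% for the remaining 6 mRNAs and both rRNAs. Counts of these genes are therefore uncertain one by one for the members with low shares, and the pair of member and copy is the firmer quantity.

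The split of counts between member and copy varied from library to library. For mt-Co2, the copy took 14.6 to 78.6% of the pair's counts in kidney, with a median of 71.5%, and 51.7 to 84.2% in retina, with a median of 79.2%. For mt-Nd3 it took medians of 91.1 and 92.1%, and for mt-Co3 medians of 33.9 and 36.8%. The copies of mt-Nd4 and mt-Nd4l were listed at 0 in every library, although they match their members as closely. In mean CPM over all libraries Gm28661 stood at 15406, Gm29216 at 11486, Gm28437 at 6673, Gm28438 at 2965 and Gm10925 at 1239. On chromosome 2, Gm13341 (6.46) and Gm13340 (4.52) also passed 1 CPM.

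**Figure D1:**
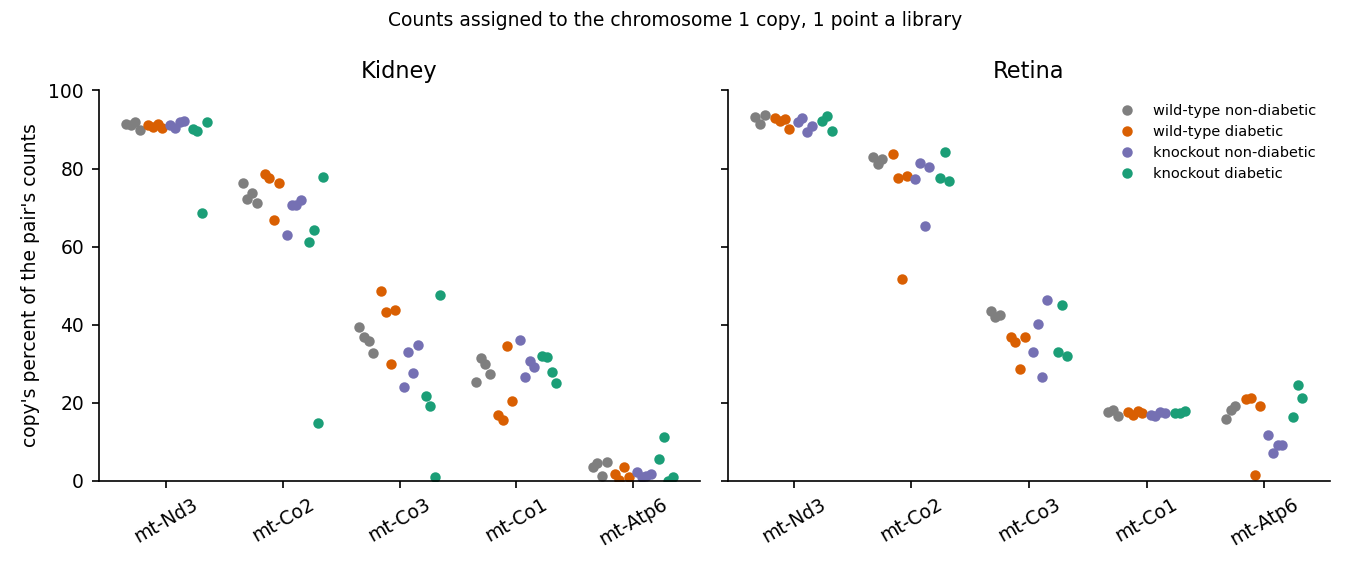
The vertical axis is the percent of a pair's counts that the deposited tables assign to the copy on chromosome 1, with 1 point for each library, in kidney (left) and retina (right), coloured by group. The mt-Co2 pair ran from 14.6 to 78.6% in kidney, where K591 was lowest, and from 51.7 to 84.2% in retina, where R942 was lowest.

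Mitochondrially encoded genes took a median of 24.7% of all counts in kidney and 6.86% in retina. In wild-type non-diabetic kidneys the share was 23.5% in K812, 24.4% in K819, 24.7% in K834 and 36.4% in K861. In wild-type diabetic kidneys it was 24.7% in K597, 26.1% in K645, 24.5% in K844 and 24.8% in K877. The first 3 of the former and all of the latter lay within a few percentage points of each other, and K861 was far above.

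In knockout non-diabetic kidneys the share was 22.0% in K559, 29.2% in K560, 24.7% in K582 and 22.7% in K584. In knockout diabetic kidneys it was 31.9% in K587, 31.5% in K588, 45.4% in K591 and 22.2% in K596. No 2 of the 4 kidney groups were separated, since K596 was lower than every wild-type diabetic library and the other 3 were higher.

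In retina the order was tighter. The share was 7.65% in R812, 6.83% in R819 and 7.28% in R852, the wild-type non-diabetic retinas, against 6.36% in R844, 6.22% in R915, 7.29% in R942 and 6.50% in R954, the wild-type diabetic ones. It was 6.97% in R559, 6.89% in R560, 7.23% in R582 and 7.62% in R590, the knockout non-diabetic retinas, and 6.42% in R587, 6.05% in R588 and 6.10% in R591, the knockout diabetic ones. All 3 knockout diabetic retinas were below all 4 knockout non-diabetic ones, while in wild-type retinas R942 crossed into the range of the non-diabetic group. No test was run on the share, which is a sum over members.

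**Figure D2:**
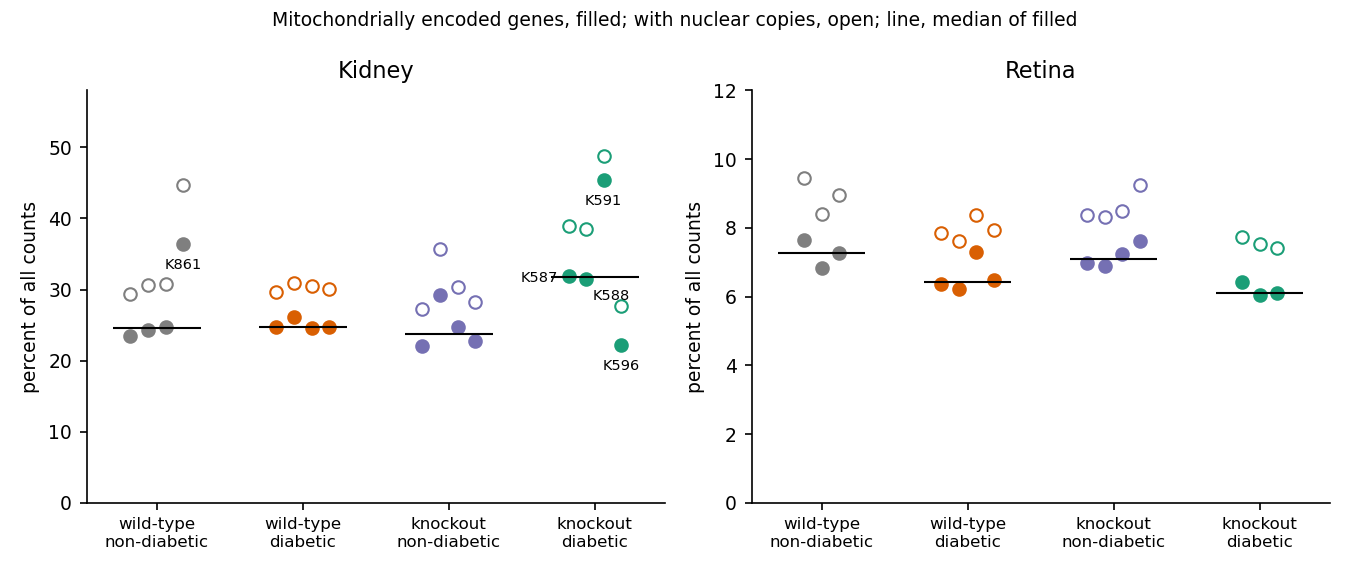
The vertical axis is the percent of all counts per library, from 0, by group in kidney (left) and retina (right); filled points are the 37 mitochondrially encoded genes, open points add their nuclear copies, and lines are medians of the filled points. K591 (45.4%) and K861 (36.4%) lie above the other kidney libraries, and the 3 knockout diabetic retinas (6.05 to 6.42%) lie below the 4 knockout non-diabetic ones (6.89 to 7.62%).

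Kidney libraries with a high mitochondrial share also had high levels of RNAs that stay in the nucleus. A list of such RNAs (5 tested in kidney, Malat1 and Neat1 among them) summed to 4000 CPM in K587, 4283 in K588, 3415 in K591 and 5890 in K861. In the other 12 kidney libraries it ran from 1155 to 2524 CPM, with K596 at 1553. Retinas did not show this pattern, as R588 had the highest sum among them, 3961 CPM, and the lowest mitochondrial share, 6.05%. Markers of the thick ascending limb, a kidney tubule segment rich in mitochondria, summed to 1786 CPM in K587, 1522 in K588, 1192 in K591 and 948 in K861. All other kidney libraries were higher, at 2234 to 4552 CPM. The summed proximal tubule list did not set these libraries apart in 1 direction. It stood at 22212 CPM in K587, 11385 in K588, 26720 in K591 and 49670 in K861. K588 was the lowest and K861 the highest of all kidneys. By Xist and Y-linked transcripts K588 was from a female and K861 from a male. In each kidney group both males were above both females on this list, so it also varied with sex. The part of RNA quality or of tissue sampling in the mitochondrial share was not tested. In whole organs, fewer cells of a type and less RNA per cell cannot be told apart.

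**Figure D3:**
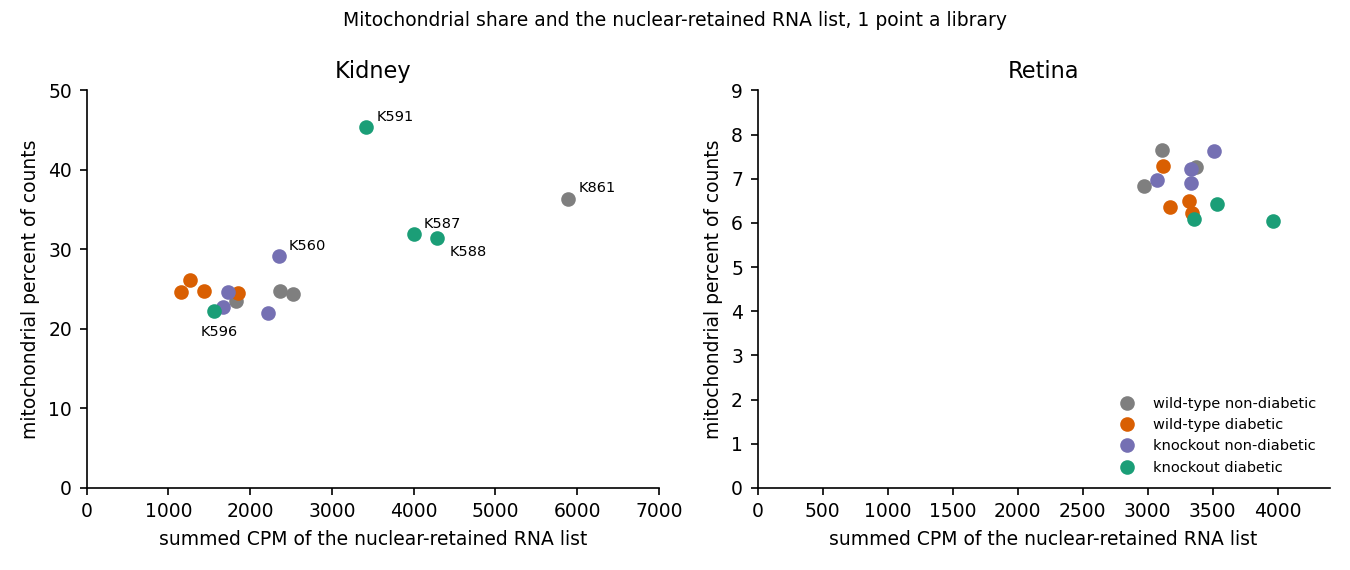
Each point is a library, with the summed CPM of the nuclear-retained RNA list on the horizontal axis and the mitochondrial percent of counts on the vertical axis, both from 0, in kidney (left) and retina (right). K587, K588, K591 and K861, with 3415 to 5890 CPM, had 31.5 to 45.4% mitochondrial counts, and the other kidney libraries had 22.0 to 29.2%.

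By TPM, complex V and complex IV mRNAs led in both organs when copies were summed in. For members alone mt-Cytb stood above all complex IV mRNAs in kidney and above mt-Co3 and mt-Co2 in retina. TPM corrects for gene length, but for short genes by more than the length itself. In kidney mt-Atp8, of 204 bases, had a median of 75847 counts, and mt-Atp6, of 681 bases, had 769816. Their TPM were nonetheless close, so the rank of mt-Atp8 in either organ rests on this correction. For members alone, the median in kidney was highest for mt-Atp6 (66973 TPM, range 59184 to 86658), followed by mt-Atp8 (57857), mt-Cytb (36804), mt-Co3 (32641) and mt-Co1 (31939), and lowest for mt-Nd3 (2441). With the copies summed in, mt-Co1 came first (85945 TPM, range 77741 to 95688), followed by mt-Atp6 (68189), mt-Co2 (61426), mt-Atp8 (57857) and mt-Co3 (48521). The range of mt-Atp6 overlapped those of mt-Co1, mt-Co2 and mt-Atp8, so the order of these is not set beyond the spread of libraries.

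In retina, with copies summed in, mt-Co1 (35567 TPM) and mt-Atp8 (35422) led with overlapping ranges, followed by mt-Atp6 (28887), mt-Co2 (26263), mt-Co3 (18328) and mt-Cytb (17074). The complex I mRNAs were lower, at 12864 TPM for mt-Nd1 and 4488 TPM for mt-Nd5 in retina, and at 27114 and 6920 TPM in kidney. By TPM, mt-Nd5 was the lowest mRNA in both organs once the copies were included. In retina mt-Nd4l, of 297 bases, had a median of 14560 counts, and mt-Nd5, of 1824 bases, had 93516. This rank in retina thus also rests on the correction for short genes. mt-Atp8 overlaps mt-Atp6 by 43 bases and mt-Nd4l overlaps mt-Nd4 by 7, as each pair is carried on a joint transcript. The end of mt-Atp8 is shown with the stretch that also starts mt-Atp6 in capitals.
mt-Atp8, chrM:7917-7969: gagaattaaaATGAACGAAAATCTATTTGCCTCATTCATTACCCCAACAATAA

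mt-Nd6, the complex I subunit coded on the minus strand, stood at a median of 19954 TPM in kidney (16455 to 39210) and 8595 TPM in retina (6173 to 10105). It overlaps mt-Nd5 by 14 bases on the other strand. The sources used here do not say whether counting used strand, so mt-Nd6 cannot be told apart from plus-strand RNA over the same bases.

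The rRNAs stood below every mRNA per length once copies were summed in, and for members alone below every mRNA but mt-Nd3. mt-Rnr1, the small ribosomal subunit RNA, had a median of 2913 TPM in kidney and 813 TPM in retina. mt-Rnr2, the large subunit RNA, had 2796 and 2366 TPM. Together the rRNAs were 1.52 to 3.73% of mitochondrial counts in kidney and 3.20 to 4.18% in retina. The sources used here do not say how rRNA was depleted or mRNA selected, and these levels depend on it.

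**Figure D4:**
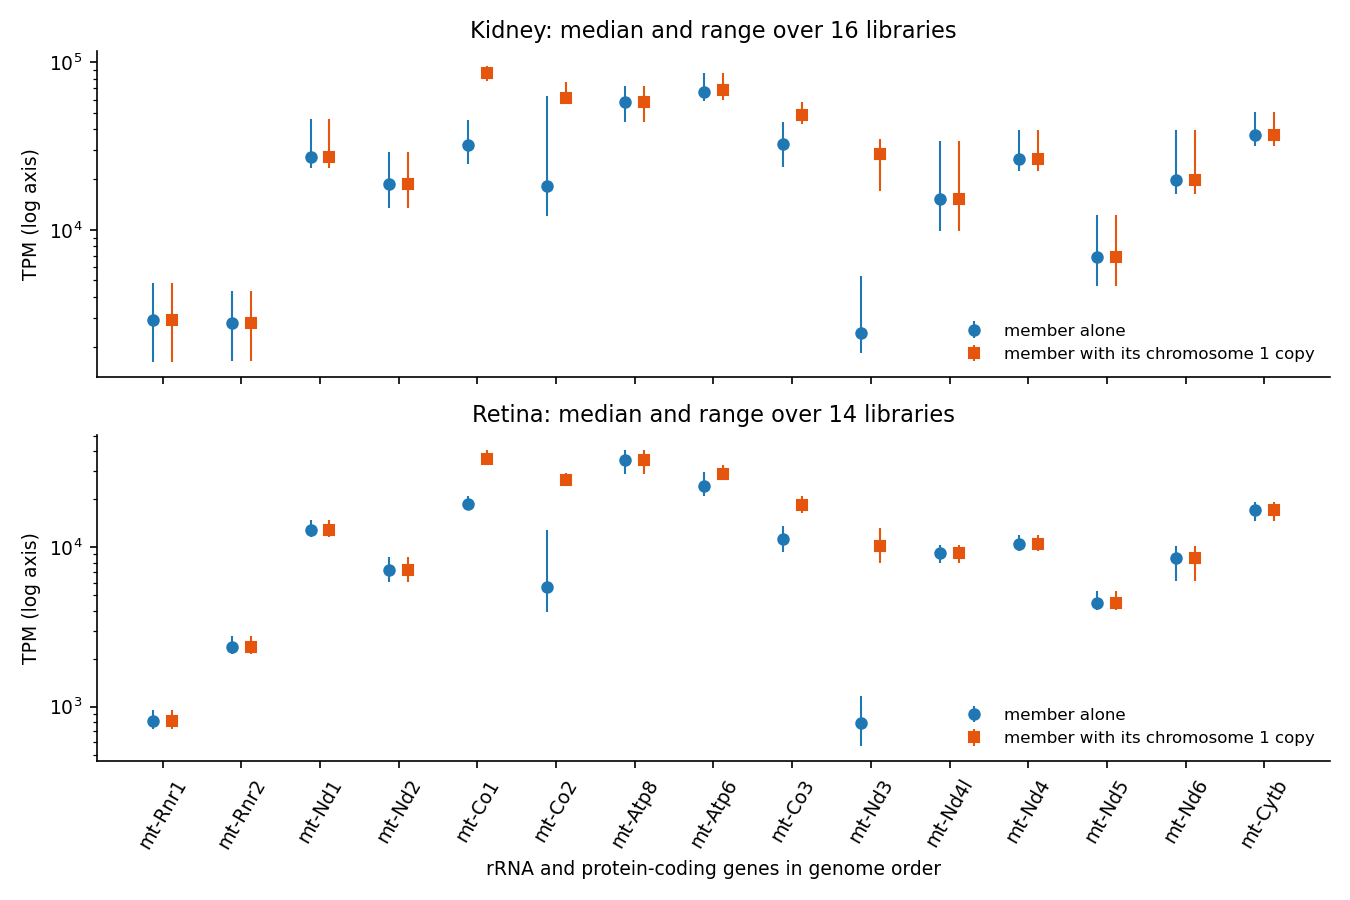
Median and range of TPM (log axis) over the 16 kidney libraries (top) and 14 retina libraries (bottom) for the 2 rRNA and 13 protein-coding genes in genome order; circles are the member alone and squares add the copy on chromosome 1. mt-Nd3 moved most when the copy was added, from 2441 to 28322 TPM in kidney.

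The tRNA genes gave 3462 to 7473 counts per kidney library and 506 to 800 per retina library. Mature tRNAs are short and folded, so these counts may also hold precursors. Of the 22 tRNA genes, 8 are on the minus strand and 14 on the plus strand. The minus-strand genes took a median of 98.9% of tRNA counts in kidney (97.8 to 99.3%) and 92.2% in retina (90.0 to 94.8%). Proline tRNA gene mt-Tp and glutamate tRNA gene mt-Te, which lie on either side of mt-Cytb on the opposite strand, alone took medians of 87.5 and 77.1%. Since the use of strand in counting is not stated, RNA of the plus strand over the same bases cannot be told apart from these tRNAs. They are printed as the 2 tRNA genes that dominate, both on the minus strand.
mt-Tp, chrM:15356-15422: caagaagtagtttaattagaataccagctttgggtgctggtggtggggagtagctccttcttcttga
mt-Te, chrM:14071-14139: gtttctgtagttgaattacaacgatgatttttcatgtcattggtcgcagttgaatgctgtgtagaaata

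In pooled CPM over kidney libraries mt-Tp stood at 150.6, mt-Te at 47.1, mt-Ts1 at 14.6, mt-Tc at 6.26, mt-Tn at 2.0 and mt-Tm at 1.15. In retina mt-Tp stood at 17.4, mt-Te at 6.82, mt-Ts1 at 2.0, mt-Tc at 1.41 and mt-Tl1 at 1.06, and no other tRNA gene passed 1 CPM. Of the 14 plus-strand tRNA genes, 11 had a median under 3 counts in each organ. At this depth their levels could not be compared between groups. The tests below cover the members that passed the filter on low counts, 23 in kidney and 22 in retina, which were all mRNAs and rRNAs and the most abundant tRNAs.

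The kidney comparison in which mitochondrially encoded genes passed the test was the knockout against the wild-type in diabetic mice. edgeR's quasi-likelihood test with Benjamini-Hochberg adjustment called 2 of 23 members, both higher in the knockout. In the same comparison 19.7% of all genes were called, 10.7% higher and 8.99% lower, so the members' share was not above the background. The median log2 fold change of the members was 0.47, against 0.04 for all genes tested. Of the members 6 had an unadjusted p under 0.05, where 39.5% of all genes did, and DESeq2 called 5, where it called 28.2% of all genes. Comparisons within an organ share libraries, so their results are not separate observations.

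mt-Co2, the complex IV subunit that accepts electrons from cytochrome c, stood at 15494 CPM in K587, 13856 in K588, 51665 in K591 and 6087 in K596. In the wild-type diabetic kidneys it stood at 5954 CPM in K597, 6708 in K645, 10693 in K844 and 6896 in K877. The groups overlapped through K596, and K591 was over 3 times any other knockout diabetic library. The log2 fold change was 1.53 ± 0.49 (SE, adjusted p = 0.0424, edgeR). With the copy's counts summed in, it was 0.49 ± 0.28 (adjusted p = 0.196), and the call ended. K591 was also the library in which the copy took the least of the pair's counts, 14.6%.

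mt-Rnr1 stood at 4332 CPM in K587, 4015 in K588, 4296 in K591 and 1454 in K596, against 1282 in K597, 1301 in K645, 2151 in K844 and 1909 in K877. Here K587, K588 and K591 were alike and all above the wild-type libraries, and K596 lay among them. The log2 fold change was 1.09 ± 0.35 (SE, adjusted p = 0.0424, edgeR), and it was the same, with an adjusted p of 0.042, when the copies were summed. mt-Rnr2 was not called, at 0.91 ± 0.32 (adjusted p = 0.0545), nor was mt-Nd6, at 0.47 ± 0.37 (0.345).

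Both calls rested on single libraries. No member was called without K587, K588, K591, K597, K645, K877 or K819, 1 was called without K560 or K582, 4 without K861 and 8 without K596. Without K591 and K861 no member was called, mt-Rnr1 stood at 0.96 ± 0.37 (adjusted p = 0.088, edgeR) and mt-Co2 at 0.63 ± 0.28 (0.126), and the median of the members was 0.07. Lists of blood and immune cell genes also separated the 2 groups. Macrophage genes (7 of 8 at a median of 1 TPM or more in kidney) summed to 102.2 to 145.9 CPM in knockout diabetic kidneys and 33.9 to 58.6 in wild-type diabetic ones. Genes of T and B lymphocytes (1 of 7) summed to 5.40 to 8.35 and 1.03 to 3.41 CPM, and erythroid genes (6 of 7) to 774 to 2509 and 188 to 728 CPM. Their part in the members' values was not tested.

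In the fits scaled to mitochondrial counts, the scale was the summed counts of the 13 mRNAs, without rRNAs and tRNAs. Scaled in this way with copies summed, no member was called, where 0.886% of all genes were and their median was −0.23, and mt-Rnr1 stood at 0.71 ± 0.33 (0.26).

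In the other 4 kidney comparisons no member was called by edgeR. For diabetes in the wild-type, where 7.29% of all genes were called, the smallest p-values fell to mt-Rnr1 (−0.78 ± 0.35, adjusted p = 0.157, edgeR), mt-Ts1 (−0.84 ± 0.43, 0.211) and mt-Rnr2 (−0.60 ± 0.32, 0.227). mt-Nd6 stood at 0.00 ± 0.37 (0.996). The median of the members was −0.10, and 0.18 without K591 and K861, so its sign rests on K861, the only 1 of the 2 libraries in these groups. Of the 23 members 1 had an unadjusted p under 0.05, where 28.1% of all genes did, and DESeq2 and limma on TPM called none.

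For diabetes in the knockout, where 0.077% of all genes were called, all 23 members had a positive fold change, with a median of 0.59. Their values were mt-Te at 0.48 ± 0.19 (adjusted p = 0.313, edgeR), mt-Nd3 at 0.90 ± 0.37 (0.318), mt-Rnr2 at 0.77 ± 0.32 (0.32), mt-Rnr1 at 0.73 ± 0.35 (0.35) and mt-Nd6 at 0.69 ± 0.37 (0.388). Of the members 5 had an unadjusted p under 0.05, where 14.4% of all genes did, and DESeq2 and limma called none. Without K596, 6 members were called, and without K591 and K861 the median fell to 0.20 with no call. Members share libraries, so their common sign is not 23 separate observations.

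For the knockout in non-diabetic mice, where 0.435% of all genes were called, mt-Rnr2 stood at −0.46 ± 0.32, mt-Rnr1 at −0.43 ± 0.35, mt-Tp at −0.31 ± 0.28 and mt-Nd6 at −0.22 ± 0.37, each with an adjusted p of 0.997 (edgeR). No member had an unadjusted p under 0.05, where 6.07% of all genes did, and DESeq2 and limma called none. The median was −0.22, and 0.09 without K591 and K861, so this sign too rests on K861.

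The genotype by diabetes interaction asks whether diabetes had a different effect in knockout kidneys, as knockout minus wild-type effect. Of all genes 0.0% were called, and no member. The smallest p-values fell to mt-Rnr1 (1.51 ± 0.49, adjusted p = 0.0973, edgeR), mt-Rnr2 (1.37 ± 0.45, 0.0995) and mt-Nd3 (1.44 ± 0.52, 0.111), with mt-Nd6 at 0.69 ± 0.52 (0.364). Of the members 6 had an unadjusted p under 0.05, where 29.2% of all genes did. DESeq2 called mt-Rnr1 and mt-Rnr2 and 9.02% of all genes, limma called none, and 7 were called by edgeR without K596. Without K591 and K861 the median went from 0.69 to −0.02.

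**Figure D5:**
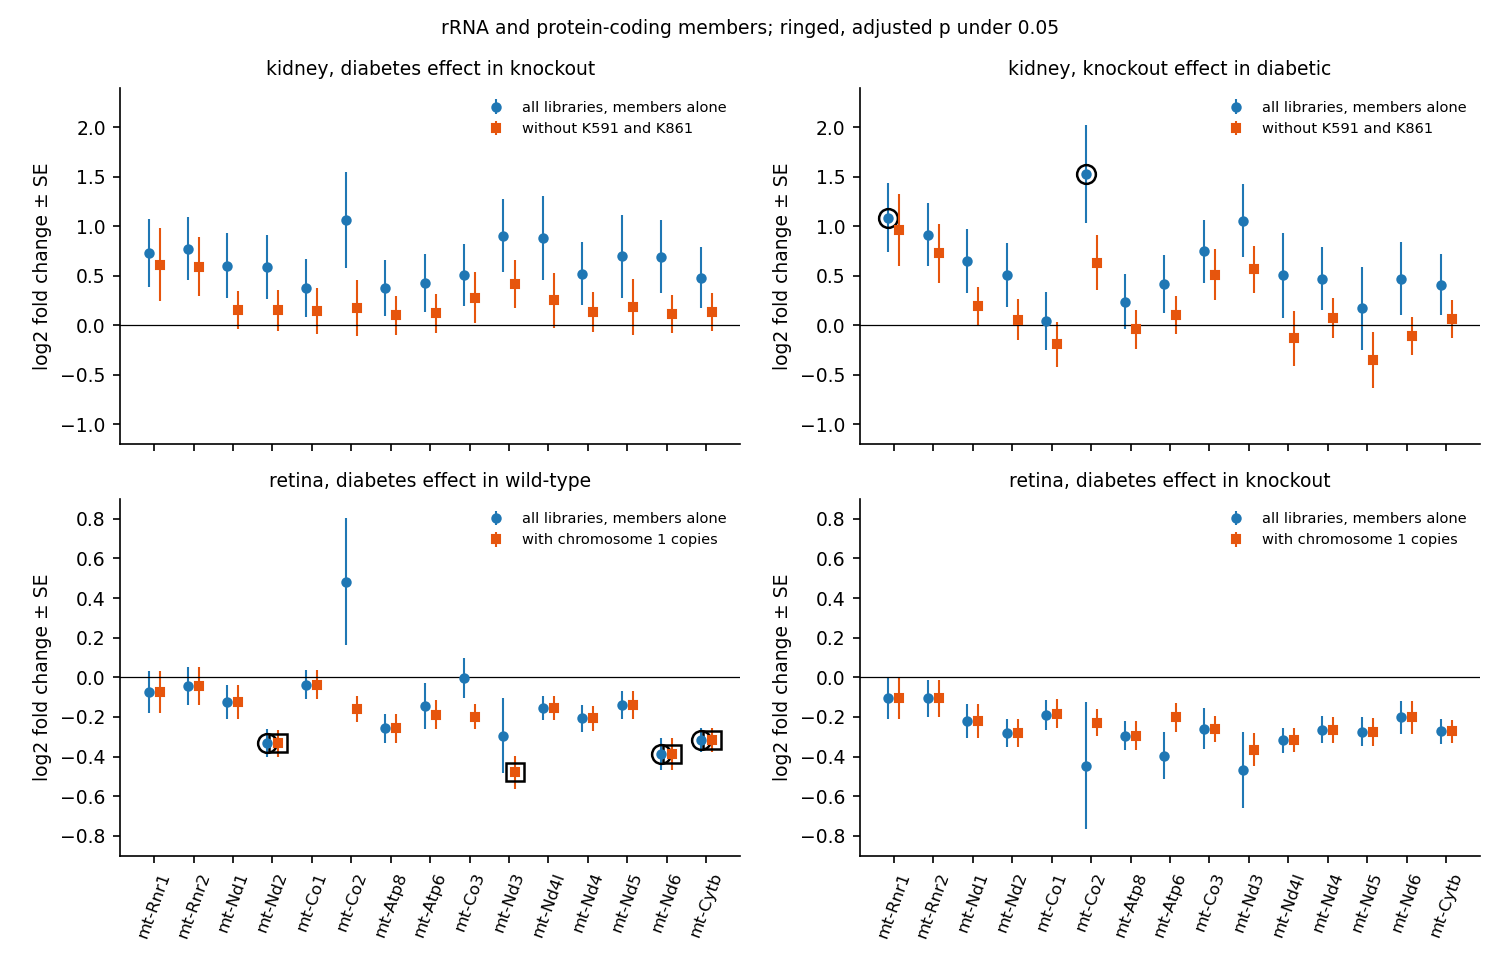
Log2 fold changes with SE of the 2 rRNA and 13 protein-coding genes in genome order, from edgeR; circles are all libraries with members alone, squares are without K591 and K861 (kidney, top) or with chromosome 1 copies summed in (retina, bottom), and rings mark an adjusted p under 0.05. For the knockout effect in diabetic kidneys, mt-Rnr1 went from 1.09 to 0.96 and mt-Co2 from 1.53 to 0.63 without K591 and K861; for diabetes in wild-type retinas mt-Co2 went from 0.48 to −0.16 with its copy.

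In wild-type retina, 3 mRNAs were lower in diabetic than in non-diabetic mice. edgeR's quasi-likelihood test with Benjamini-Hochberg adjustment called 3 of 22 members, all lower, where 2.48% of all genes were called and 1.19% were lower. DESeq2 called 5 (mt-Atp8 and mt-Nd4 as well), where it called 5.12% of all genes, and limma on TPM called none. Of the members 7 had an unadjusted p under 0.05, where 19.1% of all genes did.

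mt-Cytb, the complex III subunit that carries its b hemes, stood at 11670 CPM in R812, 10544 in R819 and 11338 in R852, the non-diabetic retinas. In the diabetic retinas it stood at 9171 CPM in R844, 8438 in R915, 9553 in R942 and 8764 in R954. The groups did not overlap. Means were 11184 ± 579 and 8981 ± 485 CPM (SD, n = 3 and 4), and the log2 fold change was −0.32 ± 0.06 (adjusted p = 0.0191, edgeR).

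mt-Nd2, a complex I subunit, stood at 4475, 4013 and 4088 CPM in R812, R819 and R852, and at 3324, 3107, 3524 and 3350 CPM in R844, R915, R942 and R954. Its fold change was −0.33 ± 0.07 (adjusted p = 0.027, edgeR). Again all diabetic retinas lay below all non-diabetic ones.

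mt-Nd6 stood at 2054, 1902 and 2043 CPM against 1591, 1467, 1333 and 1728 CPM in the same order of libraries. Its fold change was −0.39 ± 0.08 (adjusted p = 0.027, edgeR), and the groups did not overlap either, with R942 lowest.

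With copies summed in, mt-Nd3 was also called, at −0.48 ± 0.08 (adjusted p = 0.0125, edgeR), where the member alone stood at −0.29 ± 0.19 (0.421). mt-Co2 stood at 0.48 ± 0.32 (0.435) alone and at −0.16 ± 0.07 (0.206) with its copy, a change of sign that came with the low share of the copy in R942, 51.7%. mt-Rnr1 stood at −0.07 ± 0.11 (0.755) and mt-Rnr2 at −0.04 ± 0.10 (0.848). Of 22 members, 6 were lower in diabetic retinas with no overlap between the groups, mt-Atp8, mt-Nd4 and mt-Tl1 beside the 3 above, where 6.97% of all genes were. The median of the members was −0.23, against 0.00 for all genes.

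The calls ended without R812, R819, R852 or R915, with fold changes of −0.36 to −0.28 for mt-Cytb, −0.36 to −0.28 for mt-Nd2 and −0.45 to −0.33 for mt-Nd6 over all libraries left out in turn. A list of lens genes summed to 1372 CPM in R812, 857 in R819 and 81.9 in R852, and to 42.3 to 115 CPM in the diabetic wild-type retinas. Lens RNA was thus high in R812 and R819, while R852 lay within the range of the diabetic retinas. The rod list summed to 48698 to 50929.9 CPM and 47710 to 59314 CPM. Macrophage genes summed to 36.9, 44.2 and 40.8 CPM in R812, R819 and R852 and to 21.7 to 33.6 CPM in the diabetic wild-type retinas, without overlap. Genes of T and B lymphocytes (1 of 7 at a median of 1 TPM or more in retina) were higher in the diabetic retinas. They summed to 3.07 to 3.97 CPM in the non-diabetic retinas and 4.13 to 6.26 CPM in the diabetic ones. The part of lens tissue or of these cells in the mitochondrial values was not tested.

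Relative to each other, the mitochondrial mRNAs of wild-type diabetic retinas also shifted. In the fit scaled to mitochondrial counts with copies summed, mt-Co1 rose by 0.14 ± 0.04 (adjusted p = 0.0485, edgeR), while mt-Nd3 fell by 0.30 ± 0.08 (0.0239) and mt-Cytb by 0.14 ± 0.05 (0.0447). These mRNAs are parts of the sum that scales them, so a rise of mt-Co1 alone lowers the others, and the shifts are not separate observations. This scaling moved the median of all genes to 0.17 and calls to 14.6% of all genes. mt-Co1 with its copy made up 25.4, 25.9, 26.5 and 24.7% of mitochondrial mRNA counts in R844, R915, R942 and R954, against 23.1, 22.9 and 23.9% in R812, R819 and R852. mt-Cytb made up 12.03, 11.5, 11.4 and 11.6%, against 12.4 to 13.1%. Neither pair of groups overlapped. mt-Nd6 was not called on this scale, at −0.21 ± 0.09 (0.128), so that its fall in CPM was not told apart from that of the mitochondrial mRNAs as a whole.

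In knockout retina, diabetes left no member called by edgeR, nor any gene (0.0%). All 22 members had a negative fold change, with a median of −0.28. The smallest p-values fell to mt-Nd4l (−0.32 ± 0.06, adjusted p = 0.191, edgeR), mt-Cytb (−0.27 ± 0.06, 0.218) and mt-Atp8 (−0.29 ± 0.07, 0.249). mt-Nd6 stood at −0.20 ± 0.08 (0.489), mt-Rnr1 at −0.10 ± 0.11 (0.843) and mt-Rnr2 at −0.11 ± 0.10 (0.813).

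mt-Nd4l, a small complex I subunit, stood at 807 CPM in R559, 816 in R560, 775 in R582 and 784 in R590, and at 666 in R587, 595 in R588 and 653 in R591. mt-Cytb stood at 10973, 10844, 10867 and 11590 CPM against 9450, 8984 and 9034 CPM. In 14 of 22 members, 11 of them mRNAs, every diabetic knockout retina was below every non-diabetic one, where 6.16% of all genes were. Of the members 13 had an unadjusted p under 0.05, where 8.84% of all genes did. DESeq2 called 6 (mt-Nd4l, mt-Cytb, mt-Nd4, mt-Nd2, mt-Atp8 and mt-Nd5), where it called 0.381% of all genes, and limma on TPM called none. Lens genes summed to 446, 1228 and 558 CPM in R587, R588 and R591 and to 76.7 to 156 CPM in the non-diabetic knockout retinas. Here lens RNA was higher in the diabetic group, while among wild-type retinas the high values were those of the non-diabetic R812 and R819. The rod list was lower in the diabetic group, at 44998, 44660 and 48609 CPM in R587, R588 and R591 and 51377 to 61352 CPM in the non-diabetic knockout retinas, without overlap. The part of lens tissue or of rods in these values was not tested.

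The diabetes effect was not shown to differ between genotypes in retina. For the interaction, where 0.124% of all genes were called, no member was called, none had an unadjusted p under 0.05, where 10.3% of all genes did, and DESeq2 and limma called none. mt-Co2 (−0.93 ± 0.45, adjusted p = 0.507, edgeR), mt-Nd4l (−0.16 ± 0.09, 0.556) and mt-Co3 (−0.26 ± 0.15, 0.578) had the smallest p-values, mt-Nd6 stood at 0.18 ± 0.12 (0.627), mt-Rnr1 at −0.03 ± 0.15 (0.976) and mt-Rnr2 at −0.06 ± 0.14 (0.926).

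The knockout itself left no member called in retina. In non-diabetic mice, where 1.14% of all genes were called, mt-Ts1 (−0.56 ± 0.30, adjusted p = 0.461, edgeR), mt-Co2 (0.39 ± 0.32, 0.668) and mt-Rnr2 (−0.11 ± 0.10, 0.671) had the smallest p-values, and mt-Nd6 stood at −0.04 ± 0.08 (0.875) and mt-Rnr1 at −0.11 ± 0.11 (0.729). No member had an unadjusted p under 0.05, where 13.1% of all genes did, and DESeq2 and limma called none. mt-Ts1 was lower without overlap between the groups, as were 6.62% of all genes. In diabetic mice, where 1.78% of all genes were called, mt-Co1 stood at −0.24 ± 0.08 (0.128), mt-Co3 at −0.20 ± 0.10 (0.345), mt-Rnr2 at −0.18 ± 0.10 (0.377), mt-Rnr1 at −0.14 ± 0.11 (0.563) and mt-Nd6 at 0.14 ± 0.08 (0.424). There 1 member had an unadjusted p under 0.05, where 16.1% of all genes did, DESeq2 called mt-Co1 and 3.35% of all genes, and limma called none. mt-Co1 stood at 13999, 13691 and 13886 CPM in the 3 knockout retinas and at 15387 to 18309 CPM in the 4 wild-type ones, without overlap, as 6.93% of all genes were lower without overlap.

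Kidney and retina differed most. In 1 fit of all 8 groups, edgeR's quasi-likelihood test with Benjamini-Hochberg adjustment called 23 of 24 members tested as higher in kidney, where 87.8% of all genes were called and 41.1% were higher. The median log2 difference of the members was 3.04, against −0.14 for all genes. mt-Tp (4.10 ± 0.14, adjusted p = 1.86e-20, edgeR) and mt-Te (3.77 ± 0.12, 1.3e-21) were at the top, mRNAs ran from 2.61 (mt-Atp8) to 3.64 (mt-Co2), with mt-Atp6 at 3.30, mt-Nd4 at 3.21 and mt-Nd6 at 3.17, and mt-Rnr1 stood at 3.59 and mt-Rnr2 at 2.01. mt-Tl1 was not called (0.47 ± 0.22, 0.0507).

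These differences depend on the scale. Scaling to total counts gave 22 higher and 1 lower, and scaling to mitochondrial counts gave 10 higher and 8 lower, with the median of all genes shifted to −1.10 and −3.07. With copies summed and mitochondrial scaling, which asks how members differ relative to each other, 8 were higher and 8 lower in kidney, where 94.9% of all genes were called. mt-Tl1 (−2.53 ± 0.20, adjusted p = 1.84e-13, edgeR) and mt-Rnr2 (−0.98 ± 0.11, 7.73e-10) took a smaller part in kidney, and mt-Tp (1.09 ± 0.09, 1.87e-13) and mt-Te (0.79 ± 0.11, 1.03e-07) a larger one. Among mRNAs, mt-Nd5 (−0.43), mt-Atp8 (−0.40) and mt-Nd4l (−0.32) were relatively lower in kidney and mt-Nd3 (0.28) and mt-Co3 (0.25) higher, while mt-Cytb (−0.03) and mt-Co2 (0.09) were not called. The rRNAs thus moved apart: the ratio of mt-Rnr1 to mt-Rnr2 in TPM was 0.799 to 1.26 in kidneys and 0.276 to 0.371 in retinas, without overlap.

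With copies summed, the composition of mitochondrial mRNA varied more between kidneys than between retinas for most mRNAs. Complex IV mRNAs made up a median of 42.7% of mitochondrial mRNA counts in kidney and 42.1% in retina, and complex I mRNAs 30.3 to 39.7% and 31.01 to 33.7%. The highest value was that of K591, and the other kidneys reached 34.8%. mt-Cytb kept a steady part, at 11.9 to 13.1% in kidney. mt-Co2 with its copy varied with an SD of 0.078 within kidney groups and 0.017 within retina groups on the log2 scale, against 0.42 in each organ for the member alone.

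Among mRNAs and rRNAs, those that varied most within groups in kidney were mt-Rnr1 (SD 0.51 on the log2 scale), mt-Rnr2 (0.38), mt-Nd3 (0.36), mt-Nd4l (0.33) and mt-Nd5 (0.31). Of the tRNAs, which have far fewer counts, mt-Ts1 (0.74) and mt-Tc (0.71) varied more and mt-Te (0.20) less. mt-Nd5 made up 6.19 and 6.34% of mitochondrial mRNA in K597 and K645 and 3.25 and 4.90% in K844 and K877, of the same group. By Xist and Y-linked transcripts K597 and K645 were from males and K844 and K877 from females. The part of sex in this split was not tested. K591 held the lowest parts of mt-Co3 (6.88%) and mt-Nd3 (0.768%) and the highest of mt-Nd6 (3.51%) among kidneys. R942 held the lowest parts of mt-Nd6 (1.59%), mt-Nd3 (1.02%) and mt-Atp8 (1.14%) among retinas.

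For the knockout effect in diabetic kidneys, where 10.7% of all genes were higher and 8.99% lower, 1 of 36 nuclear complex I subunits rose (Ndufa3, 0.66 ± 0.21, adjusted p = 0.0404, edgeR) and 3 fell, among them Ndufs1 (−0.81 ± 0.27, 0.0479). Of 9 complex III subunits 3 fell (Uqcrc2 at −0.57, Cyc1 at −0.39 and Uqcrfs1 at −0.56), of 18 complex V subunits 2 fell (Atp5a1 at −0.81 and Atp5f1 at −0.66), and of 11 complex IV subunits none passed the test. Complex II, which has no mitochondrially encoded subunit, had 3 of 4 lower (Sdha at −0.96, Sdhd at −1.02 and Sdhc at −0.45). Medians over these lists were 0.34 for complex I, 0.05 for complex III, 0.10 for complex IV, 0.16 for complex V and −0.71 for complex II, against 0.04 for all genes, so that medians and calls differed in sign for complexes I, III and V.

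In the same comparison, of 18 genes of mitochondrial DNA maintenance and transcription, Tfam, which packages mitochondrial DNA and starts its transcription, fell by 0.84 ± 0.23 (adjusted p = 0.0271, edgeR), from 39.8 ± 4.56 to 22.2 ± 10.1 CPM (SD, n = 4 each). Mterf4, a factor of the mitochondrial ribosome, rose by 0.59 ± 0.16 (0.0278), and the RNA polymerase gene Polrmt was among those that did not pass, at 35.7 ± 2.81 and 34.2 ± 3.26 CPM. Of 34 genes of mitochondrial RNA processing and stability 7 fell and none rose, where 8.99% of all genes were lower. Among these 7 were Lrpprc, which stabilises mitochondrial mRNA (−0.75 ± 0.24, 0.0398), Ptcd2 (−0.55) and Trmu (−0.45). This list summed to 741 CPM in K587, 783 in K588, 787 in K591 and 955 in K596. In the wild-type diabetic kidneys it summed to 935 to 1036 CPM, a range that held K596. Of 14 regulators of biogenesis Esrrg fell (−0.995 ± 0.29, 0.0328) and Ppargc1b rose (0.89 ± 0.30, 0.0499). Bnip3 of 9 mitophagy genes fell (−0.93), and of 17 stress-response genes Chac1 rose (2.92) and Hspa9 fell (−0.87). Of the 5 nuclear-retained RNAs 4 rose, among them Kcnq1ot1 (1.59), Meg3 (1.72) and Malat1 (1.60 ± 0.51, 0.0405), and of 9 RNAs without a poly(A) tail 1 rose (Hist1h4h, 1.45).

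For diabetes in wild-type kidneys, none of the nuclear subunits of complexes I to V passed the test. Of the other lists, Fastkd5, which takes part in mitochondrial RNA processing, rose (0.72 ± 0.21, adjusted p = 0.0464, edgeR) and Gabpb1 of the biogenesis list fell (−0.79 ± 0.20, 0.0307). Asns (−1.60) and Chac1 (−3.03) fell and Phgdh (1.43) rose in the stress-response list, and Neat1 fell (−0.68). No list gene was called in the remaining kidney comparisons.

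Some nuclear subunits were also lower in wild-type diabetic retinas, where 1.19% of all genes were. Of 36 complex I subunits 3 were lower, Ndufa13 (−0.32 ± 0.05, adjusted p = 0.00853, edgeR), Ndufs5 (−1.13 ± 0.20, 0.0129) and Ndufc2 (−0.27 ± 0.06, 0.0362). Of 9 complex III subunits 3 were lower (Uqcr10, Uqcrb and Uqcrq, −0.28 to −0.25), of 11 complex IV subunits 1 (Cox6c, −0.22) and of 18 complex V subunits 5, among them Atp5e, Usmg5 and Atp5mpl at −0.30 each, and none rose. Medians were −0.17, −0.18, −0.18 and −0.15 for complexes I, III, IV and V, against 0.00 for all genes. In knockout retina the medians were −0.12, −0.13, −0.17 and −0.14, with no call.

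Of the genes of mitochondrial RNA handling, Slirp, which binds mitochondrial mRNA together with the Lrpprc protein, was lower in wild-type diabetic retinas (−0.40 ± 0.07, adjusted p = 0.0118, edgeR), as was Ngrn (−0.24), and Trub2 was higher (0.51). Mterf4 was lower (−0.52) and the chaperonin gene Hspe1 was lower (−0.27). For the knockout effect in non-diabetic retina, Ndufa13 was lower (−0.24 ± 0.05, adjusted p = 0.0177, edgeR).

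Between the organs, the nuclear subunits were higher in kidney in every case. Nuclear genes were counted on the main scale alone, that of the trimmed mean of M values. On the other scales the median of all genes shifted, so small differences, such as Polg at 0.16 and Tfb1m at 0.53, need not hold on them. All 36 complex I, 9 complex III, 11 complex IV, 18 complex V and 4 complex II subunits tested were called higher, where 41.1% of all genes were, with median log2 differences of 2.38, 2.65, 2.93, 2.67 and 2.84. Examples are Ndufa9 (2.77 ± 0.05, adjusted p = 5.06e-27, edgeR), Cyc1 (2.65), Cox7b (3.20), Atp5c1 (2.44) and Sdhb (3.64). Genes of mitochondrial DNA maintenance were mixed, with 13 higher and 4 lower of 18 (Top1mt at 1.47, Tfb2m at 1.48 and Polg2 at −1.80), and biogenesis regulators with 4 higher and 8 lower of 14 (Esrra at 2.69, Sirt3 at 2.14 and Tfeb at 2.32 by smallest p, and Esrrb at −3.56, named after its value was seen as the largest difference). Of the RNA processing list 27 of 34 were higher and 5 lower, led by Hsd17b10 (4.03), a subunit of mitochondrial RNase P, Pus1 (2.56) and Fastkd1 (1.41).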

How the data were processed

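RNA from flash-frozen kidneys and retinas was isolated by Trizol and sequenced on a BGISEQ-500, per the labels' protocols. The tools named, per the submitters' processing notes, are Trim Galore 0.6.4, which trims reads, and kallisto, listed as version 0.4.6, with the build GRCm38.p6. The authors deposited expected counts and TPM for 55385 genes in each library. Of the deposited expected counts 35.0% were not whole, as reads shared between transcripts are divided, and they were rounded. Of the gene identifiers 54487 matched GENCODE M21 with version, 55144 without, and 241 did not match. No 2 libraries were identical.

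Counts were fitted with edgeR 4.0.16 (R 4.3.3) after filterByExpr and trimmed mean of M values, in 1 fit of 4 groups for each organ (18177 genes in kidney, 20979 in retina) with 5 contrasts, and 1 fit of 8 groups for kidney minus retina (23021 genes). Quasi-likelihood F tests were adjusted by Benjamini-Hochberg over all genes tested, and a gene was called at an adjusted p under 0.05. Fold changes are log2 with SE. Alternatives were other normalisations, scalings and filters, DESeq2 1.42.0, limma 3.58.1 on log2(TPM + 1), a fit of 2 groups, a sex covariate read from Xist and Y-linked transcripts, and leaving out each library. Summing 7 members with their chromosome 1 copies and leaving out K591 and K861 were added after seeing the data. Shared sequence was measured as 31-base words of GENCODE M21 transcripts.

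On simulated counts for diabetes in the wild-type, with 200 of 18177 kidney genes and 200 of 20979 retina genes changed, 2-fold changes were recovered in 68% and 98% of cases and 1.5-fold changes in 16% and 68%. The changed genes were drawn from outside the members, and all genes of an organ were given the same spread between libraries. These rates were thus not measured for the members. Organs of 1 animal carry its number in the sample names; their deviations correlated by 0.0108 to 0.0703 over 9 animals. Members, lists and comparisons were chosen with earlier results of these data known. Called members were named, at most 6 by p in each comparison, or else the 3 of smallest p, with mt-Nd6 and the rRNAs throughout; of each list at most 3 called genes were named, and some list genes are not reported here.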

Additional observations from a re-analysis of the deposited data

Results flagged for a closer look

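Among 108 groups of 4 libraries examined for a library far from the other 3, 4 were picked out, where chance picks out about 1 in 20. The mitochondrial share of counts was 36.4% in K861, against 23.5 to 24.7% in the other wild-type non-diabetic kidneys, and 26.1% in K645, against 24.5 to 24.8% in the other wild-type diabetic kidneys. The rRNAs were 3.68% of mitochondrial counts in R590, against 3.20 to 3.27% in the other knockout non-diabetic retinas. mt-Atp8 was 1.14% of mitochondrial mRNA counts in R942, against 1.5003 to 1.54% in the other wild-type diabetic retinas. The gap to the nearest library took 0.864 to 0.901 of the group's range for K645, K861 and mt-Atp8 in R942 and 0.847 for R590.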

How the results depend on the processing

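Of the 23 kidney members, the 2 calls for the knockout effect in diabetic mice became 0 with no filter on low counts, scaled to mitochondrial counts (also with copies summed, with or without a sex covariate), with limma on TPM, with only the 2 groups and without K591 and K861. They became 1 scaled to total counts or with copies summed, 4 scaled to nuclear counts or with a sex covariate, and 5 with DESeq2. Leaving out 1 library at a time gave 0 to 8 (8 without K596). The interaction in kidney went from 0 to 2 with DESeq2, 1 with a sex covariate and 0 to 7 with 1 library left out, and diabetes in knockout kidneys to 0 to 6, both highest without K596. The 3 calls for diabetes in wild-type retinas became 0 scaled to mitochondrial counts, with limma or with only the 2 groups, 5 with DESeq2, and 0 to 4 with 1 library left out (0 without R812, R819, R852 or R915). Diabetes in knockout retinas went from 0 to 1 with no filter and 6 with DESeq2, and the knockout effect in diabetic retinas from 0 to 1 with DESeq2. The cause of these changes was not tested.

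Values that turned sign were mt-Nd3 for diabetes in knockout kidneys, −0.16 with copies summed and mitochondrial scaling and −0.20 with a sex covariate too, mt-Co2 for the knockout in non-diabetic retinas, −0.0296 with copies summed, and mt-Rnr2 there, −0.19 to 0.0038 with 1 library left out. Median shares by summed TPM were 35.01, 39.1 and 35.5% for knockout non-diabetic, wild-type diabetic and wild-type non-diabetic kidneys, and 15.6, 18.1, 16.4 and 17.6% for knockout diabetic, knockout non-diabetic, wild-type diabetic and wild-type non-diabetic retinas. With nuclear copies added they were 29.3, 30.3 and 30.7% in kidney and 7.54, 8.43, 7.89 and 8.97% in retina, in the same order. Protein-coding members alone gave 5.88% in knockout diabetic retinas. Complex IV was 31.3% of mitochondrial mRNA in kidney and 32.9% in retina without copies.

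With the animal as replicate block, in the 9 animals with both organs, 25 of 26 members tested were higher in kidney. Without the block 21 of 22 were, and no call changed in direction. The filter on low counts used the 8 groups in the fit with the block and only the organs in the other. The number of members tested thus differed through the filter. Depth limits the plus-strand tRNAs, and groups of 3 or 4 limit every comparison.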

Other observations

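By Xist and Y-linked transcripts each kidney group held 2 females and 2 males. Sex was not balanced in every retina group. The non-diabetic wild-type retinas were of a female (R819) and of males (R812 and R852). The diabetic knockout retinas were of females (R587 and R588) and of a male (R591). mt-Rnr1 counts came to 0.649 to 1.22% of mitochondrial mRNA counts in the 8 female kidneys (K587 1.22%, K588 1.15%, K559 1.199%, K560 0.868%, K844 0.733%, K877 0.649%, K819 0.927% and K834 1.12%). In the 8 male kidneys they came to 0.4005 to 0.728% (K591 0.700%, K596 0.550%, K582 0.451%, K584 0.540%, K597 0.433%, K645 0.4005%, K812 0.670% and K861 0.728%). In each kidney group both females were above both males. This pattern was seen in the data and was not tested.

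In the 9 animals with both organs a high share in one organ did not go with a high share in the other for the extreme animals. K591 had the highest mitochondrial share of all kidneys, 45.4%, while R591, from the same animal, had 6.10%, near the lowest of all retinas. R812 had the highest share of all retinas, 7.65%, while K812 had 23.5%.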
